A study of Mus musculus with 18 samples.

Results

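Repeat peptide stimulated OT-I CD8+ T cells that had been treated with ibrutinib were compared with single peptide stimulated cells that had received only the solvent DMSO, to describe which transcripts still separated drug-treated exhausted cells from untreated cells that had not been driven to exhaustion. The libraries were chosen by their labels alone and number 10 of the 18 in the series, 5 in each group. All cells were CD8+ T cells purified from the spleens of OT-I mice, whose transgenic T cell receptor recognises the OVA(257-264) peptide, and were cultured with IL-15 and IL-7. Repeat peptide stimulated cells received 10 ng/ml peptide every day for 5 days, and peptide stayed in their medium while 1 µM ibrutinib was present from day 5 until harvest on day 8. The single peptide stimulated cells met the peptide once, for 48 hours, were washed and rested without it, and were kept with DMSO over the same last 3 days. Peptide schedule and drug therefore both differed between the groups, and their contributions to a difference in this comparison cannot be told apart. For that reason the 4 libraries of repeat peptide stimulated cells given DMSO (repeat DMSO) are quoted beside the list counts and many, but not all, of the genes described. They share the single DMSO libraries as their reference, so their values and counts stand side by side with the main ones and test nothing.

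Libraries with the same genotype entry in their labels were given 1 letter here and are called a set. Sets A, B, C and D have a library in each group, E only an ibrutinib-treated repeat library and F only a single DMSO library. All labels give wild type OT-1 as the strain, yet the genotype entries of B, C, D and E name a btk knockout, that of A reads "INHB-1 left over" and that of F "PKC igoni-2". What these entries mean, and whether a set is a mouse, a culture or a day, was not settled. Btk, the B cell kinase that ibrutinib was designed against, gave 0 counts in all 5 single DMSO libraries and at most 11 in the ibrutinib-treated ones, too few to bear on the question. Xist ranged from 78.1 to 197 TPM in the 4 libraries of A and C and was at most 0.02 TPM in the other 6, while all 10 held RNA of Y-linked genes, so whether Xist was detected followed the set on both sides.

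CD8+ T cells that keep meeting their antigen enter exhaustion, a state in which inhibitory receptors such as PD-1 accumulate, the transcription factor TOX is induced and genes of memory and stem-like cells are silenced. Signals from the T cell receptor pass through the kinases LCK and ZAP70 and then through kinases of the TEC family to PLC-γ1, calcium and NFAT. Ibrutinib is a covalent inhibitor that binds BTK.

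The deposited expected counts summed to between 23445922 and 51995372 per library, with a median of 25798559. The summed level of 5 CD8 T cell markers was 2258 to 2713 TPM (a level corrected for gene length and for the library total) in the ibrutinib-treated repeat libraries and 2564 to 2944 TPM in single DMSO. Markers of other cell types were scarce in both: 6 B cell markers summed to at most 4.18 and 7.10 TPM, 6 myeloid markers to at most 6.91 and 9.18 TPM, 5 dendritic cell markers to at most 0.76 and 0.30 TPM and 3 erythroid markers to at most 0.87 and 1.84 TPM. Of 3 CD4 T cell markers Cd4 was at most 0.04 TPM, and the sum, 5.38 to 16.1 against 1.87 to 11.2 TPM, came mostly from Zbtb7b and Foxp3. Ibrutinib-treated library E stood apart from the other 4 of its group at 3.4% of the 10464 well expressed genes, against 0.172% to 0.755% for those and 0.478% to 1.24% for single DMSO libraries, and without it 3956 genes were called in the comparison that follows, against 4028 with it. These are bulk libraries, in which fewer cells of a type and less RNA per cell cannot be told apart.

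About 1 gene in 3 still separated ibrutinib-treated repeat peptide stimulated cells from single peptide stimulated cells. Of 12255 genes tested with edgeR's quasi-likelihood test, 4028 (32.9%) were called, meaning that the Benjamini-Hochberg adjusted p was under 0.05, the log2 fold change passed 0.2 in either direction and the mean normalised count was 50 or more. Of these, 2042 (16.7% of genes tested) were higher and 1986 (16.2%) lower in the ibrutinib-treated repeat cells, and 5711 genes had an unadjusted p under 0.05. The larger differences leaned to one side: of 420 genes (3.43%) that differed by more than 2 times beyond their error, 321 were higher and 99 lower, and past a log2 fold change of 3 the called genes numbered 122 higher and 19 lower. The groups did not overlap at 2437 genes (19.9%), and 3872 of the called genes (96.1%) kept their direction within each of sets A to D. The calls were made largely from these same libraries, so that share follows in large part from the calling and is no separate support. The median log2 fold change over all genes tested was 0. In the same fit 5765 genes (47%) were called between repeat DMSO and single DMSO, 726 (5.92%) between ibrutinib-treated and DMSO-treated repeat cells, and 373 (3.04%) between ibrutinib-treated and DMSO-treated single peptide stimulated cells. These comparisons share libraries, so their counts are set side by side only.

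**Figure D1:**
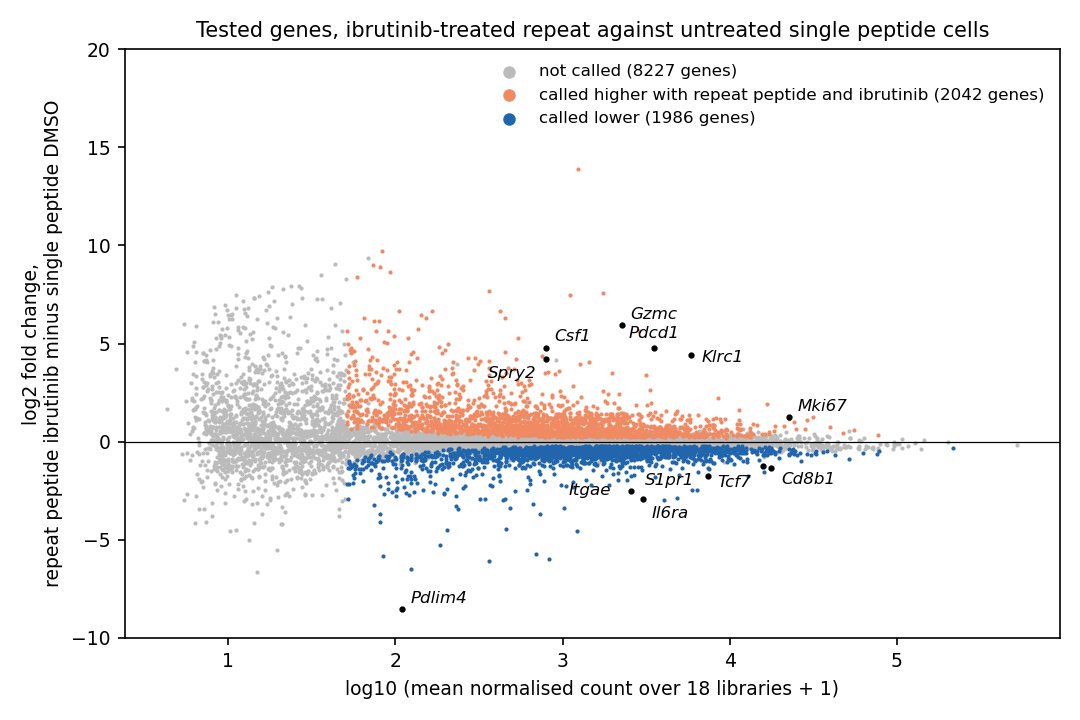
Each point is 1 of the 12255 genes tested. The x axis is the log10 of the mean normalised count over 18 libraries, with 1 added, and the y axis the log2 fold change of ibrutinib-treated repeat peptide cells over single peptide DMSO cells (5 libraries each). Called genes are coloured by direction, 2042 higher and 1986 lower, and the higher ones reach further from 0.

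The gene lists used here divided by direction, as the plot of list members shows. The inhibitory receptor, killer lectin-like receptor, cytokine and DNA replication lists had most of their called members higher, the stem-like and interferon lists had most of theirs lower, and the cholesterol list had 3 of 24 called. The share of tested members called ran from 12.5% for the cholesterol list to 100% for the inhibitory receptors, beside 32.9% of all genes tested, and was 36% for the glycolysis list, 42.9% for the cytotoxic list and 44% for the ATF4 and unfolded protein response list. It was 50% for the interferon and MHC class II lists, 60.7% for proximal signalling and 68.2% for receptor response genes. Transcription factors and ectoenzymes had 75% each, stem-like genes 83.3%, killer lectin-like receptors 87.5% and DNA replication genes 94.4%.

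**Figure D2:**
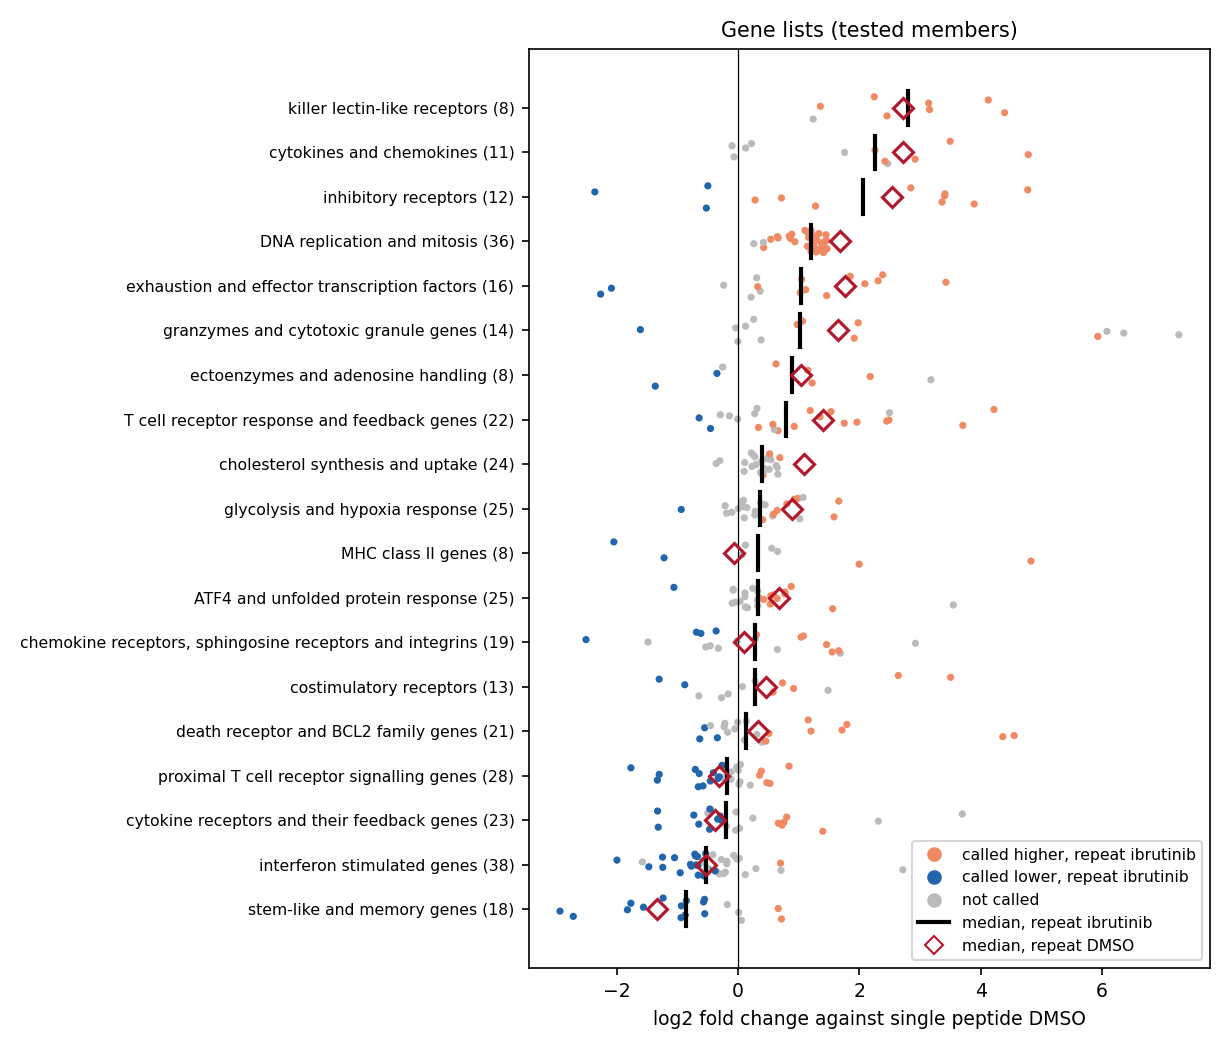
Each point is a tested member of the gene list named on the left, placed on the x axis by its log2 fold change between ibrutinib-treated repeat peptide cells and single peptide DMSO cells and coloured by whether it was called, with black bars for the list medians and diamonds for the medians of repeat DMSO cells. DNA replication and mitosis genes lie to the right of 0 (36 of 36, 34 called), most stem-like and memory genes to the left (13 of 18 called lower).

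Some genes were close to an on or off state. Gm156, a predicted gene (GRCm38 chr6:129766568-129784270) whose reads a close copy could share, had 1954, 1036, 2201, 1624 and 2781 normalised counts in ibrutinib-treated libraries A, B, C, D and E, and 0 in each single DMSO library. With a floor of 3 counts per library this is at least 561-fold higher. Tnfrsf11b, which encodes the decoy receptor osteoprotegerin, was at least 30.1-fold higher, the protease gene Bace2 at least 39.9-fold, Exph5 at least 23.7-fold, the transporter genes Slc26a10 and Slc16a11 at least 18.5-fold and 17.5-fold, and the actin-capping tropomodulin gene Tmod1 at least 12.3-fold. When only the 2 compared groups were fitted, the calls of Tnfrsf11b, Exph5, Slc26a10, Slc16a11 and Tmod1 were lost. Over those groups alone the mean counts of Exph5, Slc26a10, Slc16a11 and Tmod1 lay under the minimum of 50. In the main fit that mean also took in the repeat DMSO libraries, which held higher counts of each. The next 3 genes had counts on both sides. Igfbp7, for a secreted binding protein of insulin-like growth factors, had 2243, 1926, 3961, 3634 and 2398 against 20.5, 16.2, 29.3, 5.55 and 3.83 in single DMSO libraries A, B, C, D and F (log2 fold change 7.57 ± 0.45 (SE), adjusted p = 1.11e-09). Spp1, which encodes the cytokine osteopontin, had 661 to 3716 against 0 to 27 (log2 fold change 7.45 ± 0.67 (SE), or 8.28 without single DMSO library B), and the glutamate transporter gene Slc17a6 138 to 1168 against 0 to 6.49 (7.65 ± 0.73 (SE)). In none of these genes did a library of one group reach the range of the other. Repeat DMSO libraries held these transcripts too, with 2149 to 5383 normalised counts of Gm156 and 3523 to 4906 of Igfbp7. They had 1694 to 3862 of Spp1 and 374 to 1054 of Slc17a6.

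The counterpart genes were nearly silent after repeat stimulation. Dtx1, a ubiquitin ligase gene and target of NOTCH signalling, had 46.1, 15.9, 30.2, 20.6 and 25 normalised counts in the ibrutinib-treated libraries against 1197, 1563, 2409, 1876 and 1422 in single DMSO (log2 fold change -5.97 ± 0.28 (SE), adjusted p = 7.14e-11). Repeat DMSO held 6.54 ± 2.01 (SD, n = 4), and Dtx1 was also called higher in the ibrutinib-treated than in the DMSO-treated repeat cells, at a level that stayed far below single DMSO. Syt6, a synaptotagmin gene, showed the same order with means of 18, 83 and 1906 in repeat DMSO, ibrutinib-treated repeat and single DMSO cells. Pdlim4, which encodes a LIM domain protein of the actin cytoskeleton, was at or under 3 counts in each ibrutinib-treated library and at least 60.7-fold lower. Slc16a5 had 0 to 5.02 normalised counts against 109.6 to 275, and Acvrl1, for a receptor of the TGF-β family, 0 to 7.14 against 124 to 226, too few on the treated side for an exact fold. Kirrel (log2 fold change -6.06), 5830411N06Rik (-5.71), Myl10 (-5.29) and Sept8 (-4.53) were also lower, and none of these 6 genes overlapped between groups. Cd163l1, a scavenger receptor gene (-4.44, or -5.03 without ibrutinib-treated library A), was the one whose groups overlapped, because single DMSO library C had 103 normalised counts against 905 to 1934 in the other 4.

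Called genes were also ranked by the difference in mean TPM, a ranking that by its making favours abundant transcripts. Xcl1, the chemokine that attracts cross-presenting dendritic cells, stood at 983 ± 280.1 TPM against 83.5 ± 41.7 (SD, n = 5 each). The glycolytic enzyme gene Gapdh was at 2346 ± 491 against 1445 ± 198 TPM, S100a10 at 1799.9 ± 309 against 911 ± 196, Lgals1, for galectin-1, at 1655 ± 395 against 875 ± 189, and the histone gene Hist1h2ap, which has near identical copies and is therefore uncertain, at 4931 ± 1811 against 1372 ± 688, a call lost with only sets A to D. Among transcripts that were lower, Cd8b1 stood at 344 ± 43.1 against 819 ± 59.4 TPM and the class I heavy chain gene H2-K1 at 2196 ± 413 against 2958 ± 319. Rps13, Rplp2 and Eef2, genes of the ribosome and of translation elongation, were called lower by smaller steps (log2 fold change -0.57, -0.66 and -0.31) with overlapping groups, and the ribosomal genes share sequence with pseudogenes. The calls of S100a10 (without ibrutinib-treated library E, adjusted p = 0.0599), Lgals1 (without ibrutinib-treated library E or D, up to 0.0673), Rplp2 (without any of ibrutinib-treated A, B, C, D or single DMSO B, C, D, up to 0.0799) and Eef2 (without any library but ibrutinib-treated E and single DMSO A, up to 0.0923) were lost when 1 library was left out.

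Inhibitory receptors stayed high after ibrutinib. All 12 receptors on the list were called, 9 higher and 3 lower, against 32.9% of all genes tested, and their median log2 fold change was 2.07 where that over all genes was 0. Against the same single DMSO libraries repeat DMSO cells had 9 called higher and 3 lower, with a median of 2.54. Pdcd1, which encodes PD-1, had 3574, 4657, 4161, 5649 and 4090.5 normalised counts in the ibrutinib-treated libraries A to E and 197, 137, 135, 187 and 148 in single DMSO libraries A to D and F. The lowest treated library was far above the highest single DMSO library, and the difference was 27.4-fold (log2 fold change 4.78 ± 0.19 (SE), adjusted p = 1.25e-11). Repeat DMSO stood at 9949.9 ± 2027 (SD, n = 4). Lag3, whose product binds MHC class II, had 4216, 3690.2, 5679, 4632 and 3280.0 against 359, 378, 501, 255 and 530.4 (log2 fold change 3.41 ± 0.21 (SE), adjusted p = 2.21e-09). Tigit, the receptor of CD155, ranged from 1184 to 1931 against 157 to 293 (log2 fold change 2.85 ± 0.28 (SE)). In these 3 genes the ibrutinib-treated cells lay between repeat DMSO and single DMSO.

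A second set of receptors was above single DMSO and not called between treated and DMSO-treated repeat cells. Cd160, a receptor of HVEM, had 2089.6 ± 566 (SD, n = 5) normalised counts against 861 ± 115 (SD, n = 5) (log2 fold change 1.28 ± 0.18 (SE)) and 2303 ± 452 (SD, n = 4) in repeat DMSO. The log2 fold change of Cd160 between treated and DMSO-treated repeat cells was -0.14, with a 95% interval of -0.53 to 0.25. Cd200r1, the receptor of CD200, had 143, 255, 123, 193 and 251 against 10.3, 0, 25.5, 13 and 16.6 (3.90 ± 0.52 (SE)), with a repeat DMSO mean of 164. Cd244a, for the SLAM family receptor 2B4, was higher by a log2 fold change of 3.37 ± 0.56 (SE) (2.49 without ibrutinib-treated library B), Havcr2, for TIM-3, by 3.41 ± 0.74 (SE) at low counts (14.6 to 245 against 0 to 15.7, and 2.67 without ibrutinib-treated library B), and Ctla4 by 0.72 ± 0.18 (SE), the last 2 with overlapping groups. The Havcr2 call was lost when only the 2 compared groups were fitted. Repeat DMSO libraries had 159 to 330 normalised counts of Havcr2, 196 to 784 of Cd244a and 4439 to 6536 of Ctla4. Treated libraries had 121 to 827 of Cd244a and 3411 to 4899 of Ctla4. The missing calls between treated and DMSO-treated repeat cells do not show that these levels were unchanged. The 3 receptors called lower were Lair1, an inhibitory receptor of collagen, at 116, 66, 63.8, 106 and 94 against 498, 323, 539, 536 and 401 (log2 fold change -2.36 ± 0.26 (SE), adjusted p = 2.6e-06), Vsir, for VISTA (-0.49), and Btla, the other receptor of HVEM (-0.52). Treated and single DMSO libraries did not overlap for Lair1 or Vsir. The Btla call was lost without ibrutinib-treated C or D or without single DMSO A, B or F (adjusted p up to 0.105).

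**Figure D3:**
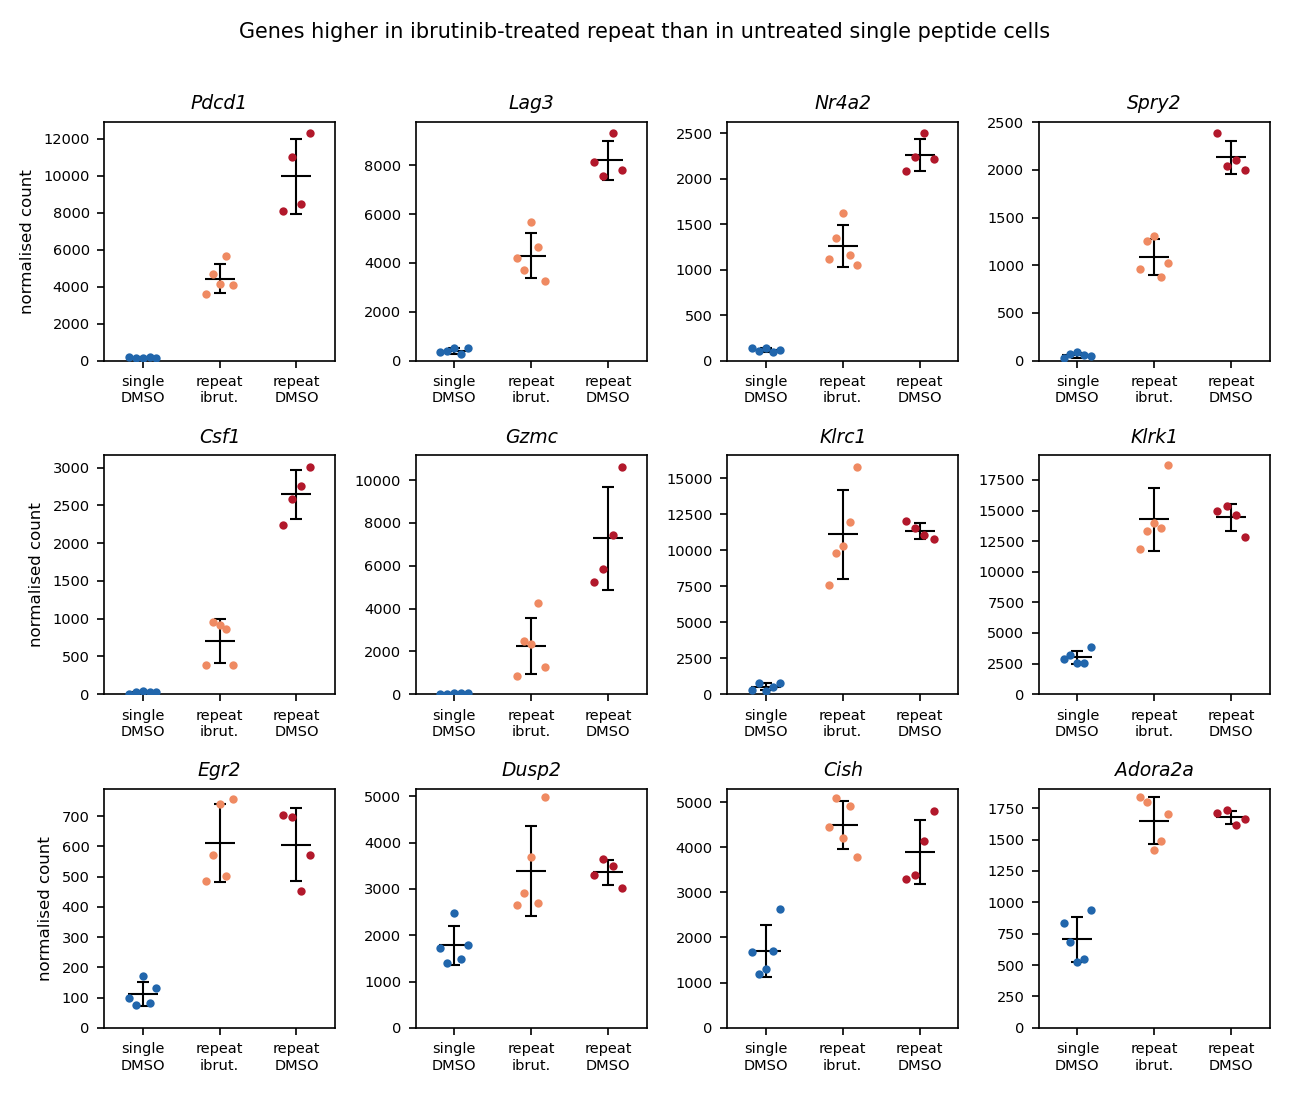
Normalised counts on a linear axis that starts at 0 for 12 genes that were called higher in ibrutinib-treated repeat peptide cells than in single peptide DMSO cells. Each point is a library, bars are means ± SD of single DMSO (n = 5), repeat ibrutinib (n = 5) and repeat DMSO (n = 4), and in all 12 the treated libraries lie above the highest single DMSO library.

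Transcription factors of the list for exhaustion and effector cells were mostly higher as well. Of 17 on the list 16 were tested, 10 were called higher and 2 lower, and the median log2 fold change was 1.04 (1.77 for repeat DMSO, with 11 and 3). The NR4A nuclear receptors, which T cell receptor signals induce through NFAT, were among the largest. Nr4a2 had 1121, 1347, 1627, 1164 and 1053 normalised counts against 136, 104, 138, 89.8 and 120.1 (log2 fold change 3.43 ± 0.16 (SE), adjusted p = 7.14e-11), and Nr4a3 and Nr4a1 were higher by 2.31 ± 0.22 (SE) and 2.09 ± 0.31 (SE). Tox, which encodes the factor that establishes exhaustion, had 952, 939.6, 1344, 861 and 982 against 270.2, 326, 273, 254 and 284 (log2 fold change 1.85 ± 0.17 (SE), adjusted p = 2.46e-07), with 1676 ± 310.2 (SD, n = 4) in repeat DMSO. For each of these 4 genes the treated libraries lay wholly above single DMSO. Zeb2, a factor of terminal effector cells, was higher by 2.39 ± 0.30 (SE), Bhlhe40 by 1.46 ± 0.29 (SE) and Irf4, an activation factor, by 1.12 ± 0.18 (SE), also without overlap. Id2, which marks effector cells, had 2679.8 ± 675 (SD, n = 5) normalised counts in treated cells against 1313 ± 195 (SD, n = 5) in single DMSO (1.03 ± 0.18 (SE)), and repeat DMSO held 1926 ± 309 (SD, n = 4). Prdm1, which encodes BLIMP-1, was called higher (1.05 ± 0.34 (SE)) with overlapping groups, and that call was lost without ibrutinib-treated library B or single DMSO library A (adjusted p up to 0.0779).

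The 2 called lower were Eomes and Maf. Eomes, a T-box factor of effector and memory cells, had 283, 1019, 176, 274 and 690.3 normalised counts in treated libraries A to E against 2512, 1556, 1879, 2889 and 2847 in single DMSO (log2 fold change -2.26 ± 0.41 (SE), adjusted p = 0.000396). The treated values spread from 176 to 1019, yet the highest stayed under the lowest single DMSO value, and repeat DMSO held 188 ± 125 (SD, n = 4). Maf was lower by -2.08 ± 0.60 (SE) at low counts with overlapping groups, and lost its call with only sets A to D. Batf (log2 fold change 0.22, 95% interval -0.16 to 0.60), Tbx21, which encodes T-bet (log2 fold change 0.31, 95% interval -0.10 to 0.71), Ikzf2 (log2 fold change 0.37, 95% interval -0.26 to 0.99) and Nfatc2 (log2 fold change -0.23, 95% interval -0.50 to 0.04) were not called. With the set as a block Tbx21 was called higher (0.54, adjusted p = 0.000862), as it was with only sets A to D, and Nfatc2 was called lower without ibrutinib-treated library A.

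Genes of stem-like and memory T cells remained lower after ibrutinib. Of 18 tested, 13 were called lower and 2 higher, with a median log2 fold change of -0.86, and repeat DMSO had 13 called lower and 0 higher with a median of -1.33. Tcf7, which encodes TCF1, the factor that keeps stem-like cells, had 13899, 6357, 9371, 7745 and 9508 normalised counts in treated libraries and 25151, 22862, 22019, 21746 and 18346 in single DMSO. The groups did not overlap, and single DMSO was 2.35-fold above the treated cells (log2 fold change -1.23 ± 0.19 (SE), adjusted p = 8.32e-05). Repeat DMSO held 4925 ± 1559 (SD, n = 4). Lef1, the partner of TCF1, Foxo1, which maintains quiescence, and Ccr7, which guides cells into lymph nodes, were lower by -0.93 ± 0.13 (SE), -0.87 ± 0.13 (SE) and -0.94 ± 0.19 (SE). None of these 3 overlapped between the groups.

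The receptor chain for IL-6 had the largest fitted difference of this list. Il6ra had 991, 786, 449, 440.4 and 770.0 normalised counts in treated libraries and 4141, 7124, 4264, 5250.1 and 5364 in single DMSO (log2 fold change -2.93 ± 0.24 (SE), adjusted p = 7.95e-08), with 116 ± 41.7 (SD, n = 4) in repeat DMSO. Il6st, for the shared signalling chain gp130, had 1187 to 1857 against 4189 to 6197 (-1.82 ± 0.14 (SE)), and its repeat DMSO level was 1324 ± 199.6 (SD, n = 4). Il6ra was called higher in treated than in DMSO-treated repeat cells (log2 fold change 2.56) and Il6st was not (0.19). S1pr1, the sphingosine receptor that lets T cells leave tissue, had 4165, 3615, 2377, 2171 and 3782 against 10450.0, 11700.0, 10525, 11876 and 10122 (log2 fold change -1.76 ± 0.21 (SE), adjusted p = 6.36e-06), and Klf2, the factor that drives S1pr1, was lower by -1.56 ± 0.21 (SE). Cxcr5 was lower by -2.71 ± 0.58 (SE) at low counts, and by -1.86 without single DMSO library F. The 2 members called higher were Il7r, the receptor of the IL-7 in the medium, at 6564, 6834, 4535, 4748 and 5772 against 3761, 4362, 3558, 2808 and 3453 (log2 fold change 0.67 ± 0.13 (SE), adjusted p = 0.000723), and Bcl6 (0.72), whose call was lost without any of ibrutinib-treated A, B or C or single DMSO B, C, D or F (adjusted p up to 0.0849). Bach2 (log2 fold change 0.06, 95% interval -0.26 to 0.38) and Id3 (log2 fold change 0.01, 95% interval -0.25 to 0.27) were not called.

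**Figure D4:**
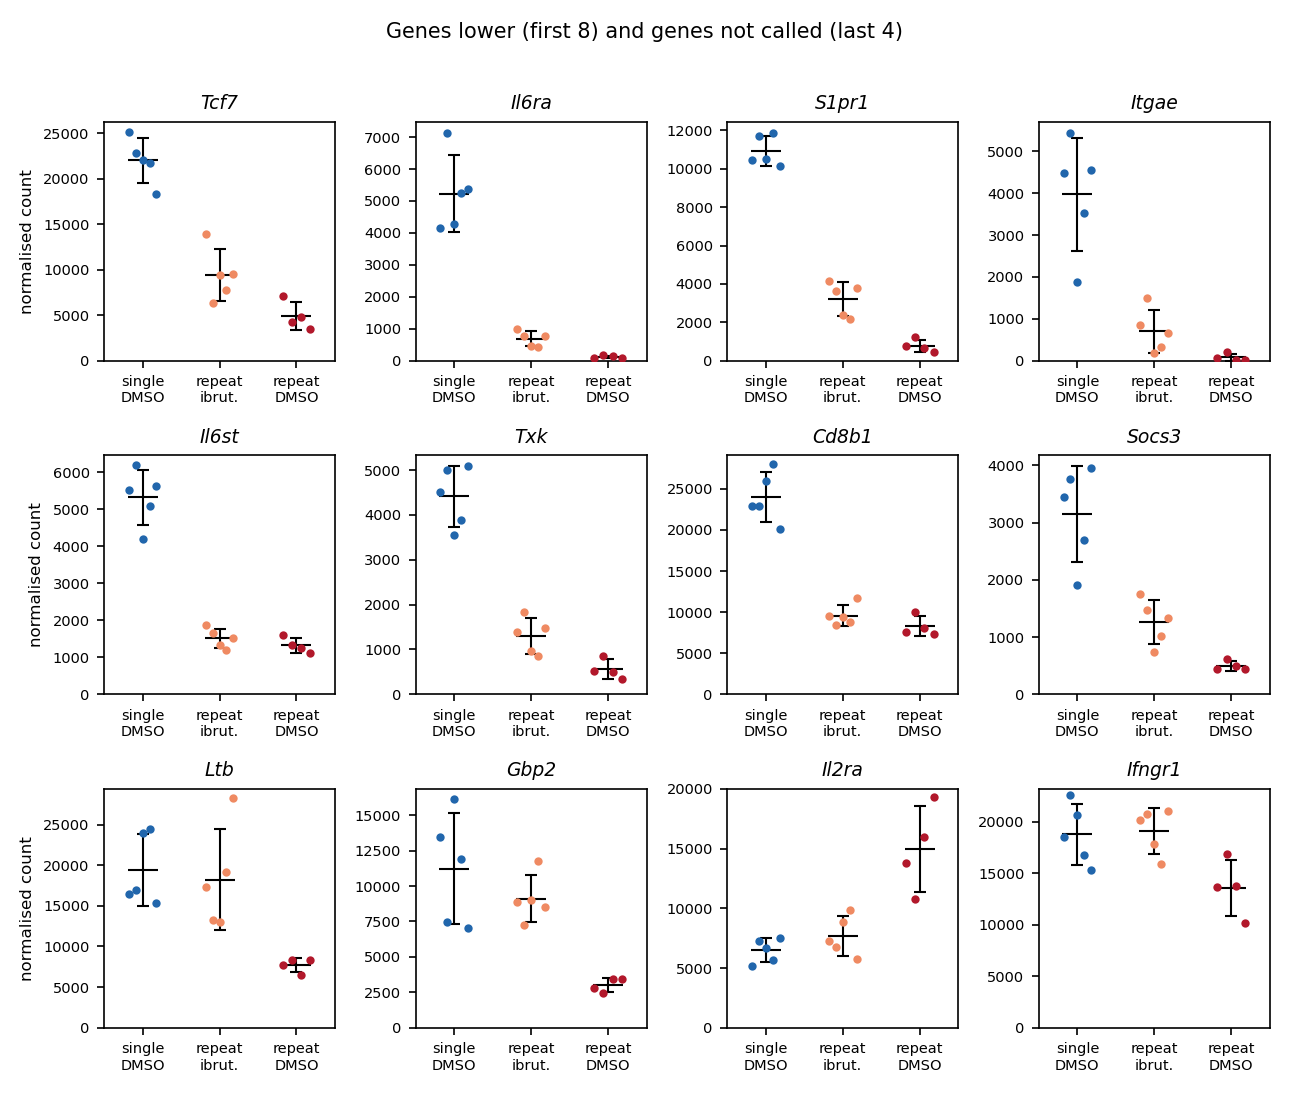
Normalised counts on a linear axis that starts at 0, drawn as in the plot of higher genes. The first 8 panels are genes called lower in ibrutinib-treated repeat peptide cells than in single peptide DMSO cells, and the last 4 (Ltb, Gbp2, Il2ra, Ifngr1) were not called, their treated and single DMSO libraries overlapping.

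Genes induced by T cell receptor signals were still raised in the presence of ibrutinib. Of 22 tested, 13 were called higher and 2 lower, with a median log2 fold change of 0.80 (repeat DMSO also 13 and 2, median 1.40). Feedback inhibitors of the ERK pathway led. Spry2, a Sprouty protein gene, had 964, 1257, 1306, 874 and 1019 normalised counts in treated libraries and 25.1, 64.9, 95.6, 54.6 and 51.1 in single DMSO (log2 fold change 4.22 ± 0.24 (SE), adjusted p = 9.03e-10). Dusp4, an ERK phosphatase gene, had 479, 341, 862, 725 and 346 against 25.1, 44.4, 51, 5.55 and 89.5 (log2 fold change 3.71 ± 0.52 (SE), adjusted p = 3.39e-05). The lowest treated library exceeded the highest single DMSO library in both. Repeat DMSO libraries held 1995 to 2386 normalised counts of Spry2 and 707 to 2302 of Dusp4. The early growth response factors Egr3, Egr2 and Egr1 were higher by 2.49 ± 0.26 (SE), 2.45 ± 0.33 (SE) and 1.96 ± 0.43 (SE), with overlap only for Egr1 (2.63 without single DMSO library C), and Nab2, a corepressor of EGR factors, by 1.35 ± 0.14 (SE). Egr2 stood at 611 ± 129 (SD, n = 5) in treated and 606 ± 119.9 (SD, n = 4) in DMSO-treated repeat cells, and Dusp2, another phosphatase gene (log2 fold change 0.93 ± 0.17 (SE)), at 3389 ± 983 (SD, n = 5) and 3365 ± 271 (SD, n = 4). Dusp6 (1.75 ± 0.50 (SE)) and the ubiquitin ligase gene Cblb (0.66 ± 0.15 (SE)) were also higher. The 2 called lower were Myc, the driver of growth (-0.64 ± 0.11 (SE)), and Dgka, a diacylglycerol kinase that limits signalling (-0.45 ± 0.11 (SE)).

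Proximal signalling genes leaned the other way. Of 28 tested, 12 were called lower and 5 higher, with a median log2 fold change of -0.18, and repeat DMSO had 16 and 7 with a median of -0.31. Cd8b1, the β chain of the CD8 coreceptor, had 9522, 8442, 9426, 8734 and 11744 normalised counts against 22967, 22936, 25996, 28025 and 20128, a 2.51-fold difference (log2 fold change -1.33 ± 0.13 (SE), adjusted p = 3.67e-07), while Cd8a, the α chain, was lower by -0.45 ± 0.09 (SE). The 2 chains of 1 receptor thus differed from single DMSO by unequal amounts. Txk, which encodes the TEC family kinase RLK, had 1389.9, 1828, 958, 846 and 1486 against 4502, 5013, 3558, 3899 and 5092 (log2 fold change -1.76 ± 0.23 (SE), adjusted p = 1.58e-05), with 556 ± 221 (SD, n = 4) in repeat DMSO, and the kinase gene Tec was lower by -0.70 ± 0.22 (SE). Treated and single DMSO libraries overlapped for Tec and not for Txk. Pag1, an adaptor that recruits the LCK inhibitor CSK, was lower by -1.30 ± 0.18 (SE) and Plcg1 by -0.64 ± 0.15 (SE). Called higher were Ubash3b, a phosphatase gene that damps ZAP70 (0.84 ± 0.19 (SE)), and Cd3g (0.53 ± 0.16 (SE)), whose call was lost with only sets A to D. Cd3e (log2 fold change 0.02, 95% interval -0.17 to 0.20) and Lck (log2 fold change -0.16, 95% interval -0.38 to 0.06) were not called, though Lck was called lower with the set as a block (-0.24, adjusted p = 0.0298).

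Some costimulatory receptor genes of the TNF receptor family were higher with ibrutinib than in single DMSO. Tnfrsf4, for OX40, had 798, 423, 1667, 1317 and 751 normalised counts in treated libraries and 82.1, 109, 105, 43.5 and 99.7 in single DMSO (log2 fold change 3.51 ± 0.36 (SE), adjusted p = 1.1e-06). Tnfrsf9, for 4-1BB, had 2579, 2605, 6421, 4714 and 5065 against 701, 408, 1065, 667 and 580.2 (log2 fold change 2.64 ± 0.32 (SE), adjusted p = 7.43e-06). No treated library fell into the single DMSO range for either. Icos was higher by 0.92 ± 0.12 (SE), and Tnfrsf14, which encodes HVEM, the ligand of CD160 and BTLA, was lower by -0.87 ± 0.13 (SE). Of 13 tested 5 were called higher and 2 lower, with a median of 0.28 (repeat DMSO 6 and 5, median 0.47). The share called was 53.8%, against 32.9% of all genes. With the set as a block 4 were called lower, among them Cd27 (-0.22, adjusted p = 0.0317) and Cd226 (-0.78, adjusted p = 0.0461), which were not called in the fit without it (log2 fold change -0.16, 95% interval -0.33 to 0.01 for Cd27 and log2 fold change -0.64, 95% interval -1.18 to -0.10 for Cd226). Cd226 was also called lower with only the 2 compared groups, with DESeq2 and without ibrutinib-treated library E or single DMSO library C. Without any of ibrutinib-treated B, C or D or single DMSO A or F, 1 was called lower.

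Killer lectin-like receptors, which natural killer cells and chronically stimulated CD8+ T cells share, stood well above single DMSO with and without ibrutinib. Of 9 on the list 8 were tested and 7 called higher, with a median log2 fold change of 2.80, and for repeat DMSO the count was also 7 with a median of 2.73. None of the 8 was called between treated and DMSO-treated repeat cells, a comparison in which 5.92% of all genes were called. With so few calls over all genes, the missing calls do not show that these levels were unchanged. Klrc1, which encodes the inhibitory receptor NKG2A, had 7615, 9815, 10313, 11951 and 15823 normalised counts in treated libraries and 320.3, 783, 241, 528 and 763 in single DMSO, a 21.1-fold difference (log2 fold change 4.40 ± 0.33 (SE), adjusted p = 2.76e-08), and 11366 ± 549 (SD, n = 4) in repeat DMSO. Klrk1, for the activating receptor NKG2D, had 11875, 13302, 13981, 13579 and 18693 against 2859, 3213, 2563, 2526 and 3884 (log2 fold change 2.25 ± 0.14 (SE), adjusted p = 2.33e-09). Klrd1, for CD94, the partner of NKG2A, had 6426 to 16042 against 3114 to 5049 (1.36 ± 0.22 (SE)). Groups were apart for all 3. Klri2, Klrc2, Klre1 and Klrb1c were higher by 4.13 ± 0.26 (SE), 3.16 ± 0.45 (SE), 3.14 ± 0.55 (SE) and 2.46 ± 0.54 (SE) (1.85 without ibrutinib-treated library B), also without overlap. Klrc1 and Klrc2 are close copies whose reads could be split between them. Of 3 NK cell markers, Klrb1c is itself a receptor of this list, and the summed marker level was 2.69 to 25.7 TPM in treated and 0.59 to 3.67 TPM in single DMSO libraries. In the treated libraries that sum was nearly all Klrb1c. Ncr1 and Klra8, the remaining markers, reached at most 0.42 and 0.13 TPM in treated and 1.16 and 1.04 TPM in single DMSO libraries. The part of NK cells in this result was not tested.

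Several of the cytokine and chemokine genes that were detected stood higher. Of 18 on the list 11 were tested, 5 were called higher and 0 lower, with a median log2 fold change of 2.26 (repeat DMSO 6 and 2, median 2.72), and Il2, Il3, Il4, Il5, Il10, Il13 and Il21 did not pass the filter on low counts. The share called was 45.5% of those tested, against 32.9% of all genes. Csf1, the growth factor of macrophages, had 389, 956, 921, 869 and 383 normalised counts in treated libraries and 5.7, 23.8, 42.1, 25 and 32 in single DMSO (log2 fold change 4.79 ± 0.39 (SE), adjusted p = 6.84e-08). Repeat DMSO held 2644 ± 325 (SD, n = 4). Xcl1 had 2135, 3001, 4402, 4175 and 8976 against 424, 177, 714, 444 and 248 (log2 fold change 3.50 ± 0.47 (SE), adjusted p = 2.15e-05), with 2652 ± 809 (SD, n = 4) in repeat DMSO, from which the treated cells were not called different. Treated and single DMSO libraries were apart for both. The chemokine genes Ccl4 and Ccl3 were higher by 2.92 ± 0.37 (SE) and 2.42 ± 0.35 (SE), and Ifng, for interferon-γ, had 95.8, 162, 205, 273 and 361 against 91.2, 5.41, 52.3, 30.5 and 51.1 (log2 fold change 2.26 ± 0.51 (SE), adjusted p = 0.00208). Tnf (log2 fold change 0.23, 95% interval -0.18 to 0.63), Ccl5 (log2 fold change -0.06, 95% interval -0.86 to 0.73) and Ltb, for lymphotoxin-β (log2 fold change -0.09, 95% interval -0.51 to 0.32), were not called. For Ltb the ibrutinib-treated libraries had 17351, 13276, 12999, 19113 and 28286 and single DMSO 16479, 16973, 24018, 24443 and 15303, while repeat DMSO stood at 7718 ± 861 (SD, n = 4). Ltb was called lower with the set as a block (-0.38, adjusted p = 0.0412), the 1 member called lower in that fit.

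Of the cytotoxic genes, 42.9% of those tested were called against 32.9% of all genes. Gzmc, a granzyme of strongly stimulated cells, had 859.9, 2483, 2337, 4246 and 1267 normalised counts in treated libraries and 14.8, 30.3, 58.6, 40.7 and 39.6 in single DMSO (log2 fold change 5.93 ± 0.44 (SE), adjusted p = 2.25e-08), and 7286 ± 2414 (SD, n = 4) in repeat DMSO. Gzmb had 13529, 15935, 21952, 26882 and 19679 against 4665, 3745, 6139, 4661 and 6722 (log2 fold change 1.92 ± 0.25 (SE), adjusted p = 1.23e-05), and 42515 ± 14442 (SD, n = 4) in repeat DMSO. For both the treated cells lay between the DMSO groups without touching the single DMSO range. Granzyme genes are similar in sequence, which leaves their counts less certain. Prf1, which encodes perforin, was higher by 0.98 ± 0.31 (SE) with overlapping groups, a call that was lost without ibrutinib-treated library C (adjusted p = 0.0509). Serpinb6b and Serpinb9, for inhibitors that protect killer cells from their own granzymes, were higher by 1.98 ± 0.27 (SE) and 1.07 ± 0.20 (SE). Of 16 on the list 14 were tested, with 5 called higher, 1 lower and a median of 1.02 (repeat DMSO 5 and 2, median 1.65), and 8 were called higher without the minimum mean count. Gzmm was the member called lower (-1.61 ± 0.42 (SE)), at 24.3, 48.9, 23.5, 22.9 and 53.6 against 63.8, 112, 76.5, 170.3 and 101, and fell under the minimum mean count without single DMSO library D. Nkg7, a granule membrane gene, was not called (log2 fold change 0.12, 95% interval -0.11 to 0.36).

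Homing receptors and integrins went in both directions, with 6 of 19 tested called higher, 4 lower and a median of 0.29 (repeat DMSO 5 and 6, median 0.10). Those called were 52.6% of the tested members, against 32.9% of all genes. Itgae, the α chain of the integrin CD103 that binds epithelial E-cadherin, had 855, 1497, 194, 316 and 657 normalised counts in treated libraries and 4491, 5434, 1879, 3531 and 4547 in single DMSO (log2 fold change -2.50 ± 0.55 (SE), adjusted p = 0.0019), with 80.1 ± 87.4 (SD, n = 4) in repeat DMSO. Its partner Itgb7 was lower by -0.68 ± 0.12 (SE), again without overlap. Ccr2, a receptor for inflammatory chemokines, had 2192, 4682, 1258, 1906 and 3381 against 841, 903, 401, 1058 and 1359.8 (log2 fold change 1.55 ± 0.42 (SE), adjusted p = 0.00699), and repeat DMSO stood near single DMSO at 983 ± 686 (SD, n = 4). Cxcr6, Itgb1 and Itgav were higher by 1.46 ± 0.24 (SE), 1.08 ± 0.13 (SE) and 1.04 ± 0.18 (SE), all without overlap. Cxcr3 was not called (log2 fold change -0.53, 95% interval -1.26 to 0.20).

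Cytokine receptor genes were called in both directions, at 60.9% of those tested against 32.9% of all genes. More were called lower than higher in this fit, where 16.2% of all genes were lower and 16.7% higher. Of 23 tested 9 were called lower and 5 higher, with a median of -0.19 (repeat DMSO 12 and 6, median -0.38), and 5 were called lower when only sets A to D entered. Cish, a feedback inhibitor induced by STAT5, had 4441, 5092, 4212, 4908 and 3792 normalised counts against 1684, 1189.9, 1297, 1705 and 2631 (log2 fold change 1.40 ± 0.17 (SE), adjusted p = 8.08e-06), and Il2rb, the chain that IL-2 and IL-15 share, was higher by 0.80 ± 0.11 (SE) and Il12rb2 by 0.73 ± 0.15 (SE). Treated libraries lay above single DMSO for all 3. Socs3, a feedback inhibitor of gp130 signalling, had 1747, 1475, 744, 1012 and 1331 against 3448, 3764, 1917, 2699 and 3949 (log2 fold change -1.32 ± 0.24 (SE), adjusted p = 0.000374). Ifngr2, the signalling chain of the interferon-γ receptor, was lower by -1.31 ± 0.24 (SE) and Il4ra by -0.73 ± 0.10 (SE), without overlap, while Ifngr1, the other chain of that receptor, was not called (log2 fold change 0.03, 95% interval -0.26 to 0.32). Il2ra, the α chain of the IL-2 receptor, was not called (log2 fold change 0.25, 95% interval -0.15 to 0.65), with 7239.5, 6723, 8849, 9881 and 5784 against 5189, 7305, 6668, 5706 and 7548 and 14961 ± 3599.8 (SD, n = 4) in repeat DMSO.

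Genes that handle extracellular adenosine and NAD were among those that differed. Cd38, for an NAD-cleaving ectoenzyme, had 342, 390.2, 454, 370.2 and 275 normalised counts in treated libraries and 77.5, 66, 101, 80.5 and 79.2 in single DMSO (log2 fold change 2.18 ± 0.23 (SE), adjusted p = 1.34e-06). Adora2a, a receptor of adenosine, had 1837, 1799.6, 1417, 1488 and 1703 against 834, 685, 521, 549.8 and 939 (log2 fold change 1.22 ± 0.16 (SE), adjusted p = 1.9e-05), and 1679 ± 52.1 (SD, n = 4) in repeat DMSO. Entpd1, for CD39, which starts the conversion of ATP to adenosine, was higher by 1.15 ± 0.25 (SE). Ada, for adenosine deaminase, which removes adenosine, was lower by -1.36 ± 0.19 (SE). None of the 4 overlapped between groups. Of 8 tested, 4 were called higher and 2 lower with a median of 0.89 (repeat DMSO 4 and 3, median 1.04). Nt5e, for CD73, was not called (log2 fold change -0.25, 95% interval -0.69 to 0.19) and was called lower with the set as a block (-0.42, adjusted p = 0.00538).

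Genes of DNA replication and mitosis were higher almost throughout. Of 36 tested, 34 were called higher and 0 lower, with a median log2 fold change of 1.21, and all 36 were called higher in repeat DMSO (median 1.68). Ccnb1, for cyclin B1, had 2866, 2504, 3546, 3870.5 and 2206 normalised counts in treated libraries and 963, 732, 1300.0, 1644 and 769 in single DMSO (log2 fold change 1.47 ± 0.22 (SE), adjusted p = 6.78e-05). Mki67, for the proliferation antigen Ki-67, had 38147, 27792, 34897, 34523 and 16670.1 against 14592, 9858, 16938, 15539 and 7516 (log2 fold change 1.24 ± 0.25 (SE), adjusted p = 0.000909). Libraries of the groups were apart for Ccnb1 and overlapped for Mki67. Mybl2 and Cdk1 were higher by 1.45 ± 0.25 (SE) and 1.41 ± 0.26 (SE). The 2 that were not called were E2f1 (log2 fold change 0.42, 95% interval 0.07 to 0.77) and Cdt1 (log2 fold change 0.26, 95% interval 0.01 to 0.52), and with the set as a block both were called higher (0.42, adjusted p = 0.00484, and 0.30, adjusted p = 0.0308). Both were also called higher without ibrutinib-treated library E, and E2f1 without ibrutinib-treated B or single DMSO C, with all gene types and with DESeq2.

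Glycolysis genes were called at a share near that of all genes, 36% against 32.9%, but mostly in 1 direction. Called or not, 21 had a log2 fold change above 0, and over all genes 16.7% were called higher and 16.2% lower. Of 25 tested, 8 were higher and 1 lower with a median of 0.37, where repeat DMSO had 18 and 1 with a median of 0.90. Slc16a3, which exports lactate, had 841, 519, 1446, 1767 and 593 normalised counts against 255, 473, 373, 262 and 269.7 (log2 fold change 1.66 ± 0.36 (SE), adjusted p = 0.0016). Bnip3, a hypoxia response gene, the glycolytic gene Tpi1 and the glucose transporter gene Slc2a3 were higher by 1.58 ± 0.30 (SE), 0.99 ± 0.25 (SE) and 0.93 ± 0.16 (SE). Pdk1, for a kinase that holds back pyruvate oxidation, had 4147, 3465, 4151, 3967 and 4498 against 7532, 8349.9, 7262, 7794 and 7694 (log2 fold change -0.93 ± 0.11 (SE), adjusted p = 6.82e-06). Hk2, for hexokinase, was not called (log2 fold change 0.29, 95% interval -0.32 to 0.89), at 1161 ± 264 (SD, n = 5) against 952 ± 349 (SD, n = 5) and 1972 ± 788 (SD, n = 4) in repeat DMSO.

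The count for the cholesterol pathway depended on whether the set entered the fit. Of 24 tested, 3 were called higher and 0 lower with a median log2 fold change of 0.40, where repeat DMSO had 20 and 0 with a median of 1.09. The 3 were Pmvk, a mevalonate pathway enzyme gene (0.69 ± 0.19 (SE)), the sterol carrier gene Stard4 (0.52 ± 0.18 (SE)) and Acat2 (0.42 ± 0.12 (SE)), and Stard4 lost its call without ibrutinib-treated C or D or single DMSO A or C (adjusted p up to 0.117). With the set as a block 18 were called higher, with only sets A to D 13, without ibrutinib-treated library E 12, without ibrutinib-treated B 9, and without ibrutinib-treated A or single DMSO D 6 each, and 5 without single DMSO F. Hmgcs1, an early enzyme of the pathway, shows the pattern. Its treated values were 4139, 3609, 6508, 9012 and 2367 in A, B, C, D and E, against 1919, 3138, 2814, 3782 and 4718 in single DMSO A, B, C, D and F. The groups overlapped, and the log2 fold change of 0.65 ± 0.29 (SE) became 0.95 with the block (adjusted p = 0.00256). Sqle, for an enzyme of sterol synthesis, went from 0.52 ± 0.28 (SE), not called, to 0.82 (adjusted p = 0.0105). The DESeq2 Wald test called 7 higher.

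Genes of the ATF4 and unfolded protein responses were called at 44% against 32.9% of all genes, with 10 of 25 tested higher, 1 lower and a median of 0.33 (repeat DMSO 15 and 2, median 0.68), and 6 higher without ibrutinib-treated library D. Asns, for asparagine synthetase, had 814, 657, 1182, 1143 and 883 normalised counts against 169.9, 310.5, 431, 304 and 372 (log2 fold change 1.56 ± 0.25 (SE), adjusted p = 0.000121). Xbp1, a factor of the unfolded protein response, was higher by 0.88 ± 0.13 (SE) and Psat1, for a serine synthesis enzyme, by 0.78 ± 0.17 (SE). Trib3, a target of ATF4, was lower by -1.05 ± 0.22 (SE), and Atf4 itself was not called (log2 fold change 0.16, 95% interval -0.11 to 0.43).

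Interferon stimulated genes called against single DMSO were nearly all lower. Of 38 tested, 18 were called lower and 1 higher, with a median log2 fold change of -0.52 against 0 over all genes, and repeat DMSO had 17 lower and 5 higher with a median of -0.53. The reference promoter windows of this list, from 250 bases before the gene start to 50 bases from it on (RefSeq, GRCm38.p6), were searched on both strands for GAAANNGAA, the core of the interferon stimulated response element. It was found in 18 of the 27 members with a window (66.7%), against 819 of 9529 tested genes (8.59%) and 8.56% of all 32851 windows. Among members it was in 9 of 14 called lower (64.3%) and 9 of 13 not called (69.2%), and among all genes in 10.6% of those called lower and 7.66% of those called higher. The 250 bases before the start are shown for 2 members called lower and 1 not called, 5′ to 3′ on the gene's strand, with the matches in capitals, to show where the motif sits ahead of genes that passed the test and of a gene that did not.
Igtp (chr11:58199306-58199555, plus strand): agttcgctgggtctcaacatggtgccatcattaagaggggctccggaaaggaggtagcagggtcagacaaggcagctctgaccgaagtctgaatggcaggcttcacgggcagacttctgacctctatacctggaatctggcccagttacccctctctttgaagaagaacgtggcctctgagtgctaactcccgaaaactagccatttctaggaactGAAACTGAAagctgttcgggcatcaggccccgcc
Ifit3 (chr19:34583279-34583528, plus strand): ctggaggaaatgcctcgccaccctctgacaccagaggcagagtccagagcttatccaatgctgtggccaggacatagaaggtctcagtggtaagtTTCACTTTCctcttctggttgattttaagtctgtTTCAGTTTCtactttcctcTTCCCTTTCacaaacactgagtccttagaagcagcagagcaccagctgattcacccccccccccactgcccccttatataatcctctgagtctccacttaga
Ifih1 (chr2:62646256-62646505, minus strand): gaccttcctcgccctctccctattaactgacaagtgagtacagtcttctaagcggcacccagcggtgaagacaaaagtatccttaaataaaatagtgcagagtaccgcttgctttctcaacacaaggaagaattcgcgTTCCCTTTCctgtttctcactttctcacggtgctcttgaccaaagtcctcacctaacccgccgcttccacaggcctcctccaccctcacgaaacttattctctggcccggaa
The single match of Igtp begins 34 bases before the start, while the 3 matches of Ifit3 and the single match of Ifih1 read on the opposite strand. A match is a description of the letters and does not show that a factor binds there.

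Values for these genes follow. Igtp, for an interferon-inducible GTPase, had 11846, 10012, 9542, 13358 and 9053 normalised counts in treated libraries and 22254, 14899, 20279.7, 18367 and 15747 in single DMSO (log2 fold change -0.77 ± 0.15 (SE), adjusted p = 0.000539), with 5981 ± 752 (SD, n = 4) in repeat DMSO. Ifit3, an antiviral gene, had 205, 217, 303, 403 and 333 against 918, 370.0, 672, 959.9 and 538 (log2 fold change -1.24 ± 0.31 (SE), adjusted p = 0.00436). Ifih1, for the RNA sensor MDA5, had 671, 485, 1066, 919 and 496 against 555, 461, 574, 737 and 636 and was not called (log2 fold change 0.30, 95% interval -0.18 to 0.78). Igtp was apart between the groups, while Ifit3 and Ifih1 overlapped. Irf9, which carries the interferon signal to these promoters, was lower by -0.69 ± 0.12 (SE), and Rtp4, Gbp4 and Oasl2 by -1.24 ± 0.26 (SE), -0.95 ± 0.18 (SE) and -1.99 ± 0.52 (SE). The member called higher was Mx1 (0.70 ± 0.25 (SE)), a call lost without ibrutinib-treated B, C or D or single DMSO B, C or D (adjusted p up to 0.0848). Gbp2, a guanylate binding protein gene, was not called (log2 fold change -0.30, 95% interval -0.73 to 0.13), at 8906, 7256, 8997, 11779.8 and 8519 against 13457, 7480.1, 16160.5, 11871 and 7068 with 3028 ± 496 (SD, n = 4) in repeat DMSO, and was called lower with the set as a block (-0.38, adjusted p = 0.0255). The corresponding search for TCACNCCAC, a sterol regulatory element, found 1 of 17 cholesterol members with a window (5.88%, Hmgcs1) against 1.33% of tested genes.

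Death pathway genes were mixed, with 8 of 21 tested called higher, 3 lower and a median of 0.14 (repeat DMSO 10 and 6, median 0.33). In all 52.4% of those tested were called, against 32.9% of all genes, of which 16.7% were higher and 16.2% lower. The count called lower was thus near the share over all genes. With the set as a block 6 were called lower, and without ibrutinib-treated C or D or single DMSO B 1 was. Bcl2a1b and Bcl2a1d, survival genes of the BCL2 family that are near identical copies and so uncertain one by one, were higher by 4.37 ± 0.37 (SE) and 4.55 ± 0.47 (SE). Fasl, the ligand of the death receptor FAS, had 717, 1631, 658, 958 and 1440.1 normalised counts against 247, 378, 175, 254 and 502 (log2 fold change 1.80 ± 0.33 (SE), adjusted p = 0.000401). Tnfsf10, for TRAIL, was higher by 1.16 ± 0.15 (SE). All 4 were apart between the groups. Cflar, for the inhibitor c-FLIP, was lower by -0.55 ± 0.16 (SE) with overlap, and lost its call with only sets A to D.

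MHC class II genes divided at low levels. Of 8 tested, 2 were called higher and 2 lower with a median of 0.34 (repeat DMSO 2 and 3, median -0.07). H2-Ab1, a class II β chain, had 149, 88.7, 433, 501 and 171 normalised counts in treated libraries and 5.7, 11.9, 10.2, 12 and 6.39 in single DMSO (log2 fold change 4.83 ± 0.57 (SE), adjusted p = 4.92e-06), with 468 ± 277 (SD, n = 4) in repeat DMSO. Cd74, the invariant chain, had 121, 77.4, 335, 445 and 59.5 against 99.2, 6.49, 115, 25 and 17.9 (95% interval of the log2 fold change 0.40 to 3.60), a call lost without ibrutinib-treated C or D or single DMSO B, D or F (adjusted p up to 0.156). H2-Ob and H2-DMa were lower by -2.04 ± 0.37 (SE) and -1.22 ± 0.22 (SE), with the groups apart as they were for H2-Ab1. Antigen-presenting cells also express these genes. The summed B cell markers were 1.25 to 4.18 TPM in treated and 3.18 to 7.10 TPM in single DMSO libraries, myeloid markers 4.09 to 6.91 and 1.05 to 9.18 TPM and dendritic cell markers 0.25 to 0.76 and 0.04 to 0.30 TPM, and their part in the class II values was not tested.

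A small set of genes differed from both DMSO groups in 1 direction. Of the 12255 genes tested, 14 were called higher and 2 lower in ibrutinib-treated repeat cells both against single DMSO and against repeat DMSO. Both comparisons use the same 5 treated libraries, so a deviation of those libraries enters both, and the count is a description with no test. S100a4, a calcium-binding protein of effector and memory T cells, had 1696, 2969, 1344, 2892 and 4575 normalised counts in treated libraries and 678, 746, 538, 1079 and 863 in single DMSO (log2 fold change 1.79 ± 0.31 (SE), adjusted p = 0.000222), and repeat DMSO held 1210.2 ± 459 (SD, n = 4). Crtam, an adhesion receptor of activated CD8+ T cells, had 1069, 966, 1696, 1088 and 1910.2 against 557, 475, 595, 495 and 709 (log2 fold change 1.25 ± 0.18 (SE), adjusted p = 3.43e-05), with a mean of 754 in repeat DMSO. In both genes the treated libraries were all above single DMSO. Those of S100a4 overlapped repeat DMSO, whose library B had 1848 normalised counts, above treated libraries A and C. For Crtam the treated libraries also lay above repeat DMSO, which ranged from 679 to 898. Ypel4 rose from low counts, at 133, 149, 121, 140.5 and 94 against 13.7, 16.2, 15.3, 11.1 and 11.5 (3.22), and leaving out any of ibrutinib-treated A, B, C or D took its mean count under the minimum. Gpr34, Eva1b and Gm17767 were higher than single DMSO by 1.28 ± 0.16 (SE), 0.92 ± 0.15 (SE) and 0.89 ± 0.20 (SE) without overlap, as was Il7r, described with the memory genes, whose repeat DMSO level was 3681 ± 318 (SD, n = 4). Against repeat DMSO the Eva1b libraries overlapped (1044 in treated C, 1079 in repeat DMSO D), and those of Gpr34, Gm17767 and Il7r did not. Fgl2, which encodes a secreted immunoregulatory protein, stood at 2078 ± 539 (SD, n = 5) in treated, 1102 ± 205 (SD, n = 5) in single DMSO and 657 ± 66.1 (SD, n = 4) in repeat DMSO cells, and its treated and single DMSO libraries overlapped, as did those of Calhm6 (0.86) and Mocos (0.70). The Mocos call was lost without ibrutinib-treated B or C or single DMSO A, B or C (adjusted p up to 0.0699).

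The 2 genes below both DMSO groups were Irf7 and Tmcc3. Irf7, the factor that amplifies type I interferon responses, had 1207, 794, 1081, 1233 and 1009 normalised counts in treated libraries and 2106, 1267, 1582, 1950.3 and 1493 in single DMSO (log2 fold change -0.66 ± 0.17 (SE), adjusted p = 0.00457), and 1754 ± 419.6 (SD, n = 4) in repeat DMSO. Tmcc3, for a membrane protein of the endoplasmic reticulum, had 37.6, 66, 39.2, 44 and 36.9 against 169.9, 181, 119, 212 and 143 (log2 fold change -1.88 ± 0.24 (SE), adjusted p = 1.25e-05), and 158 ± 15 (SD, n = 4) in repeat DMSO. Treated libraries lay wholly below single DMSO for both.

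**Figure D5:**
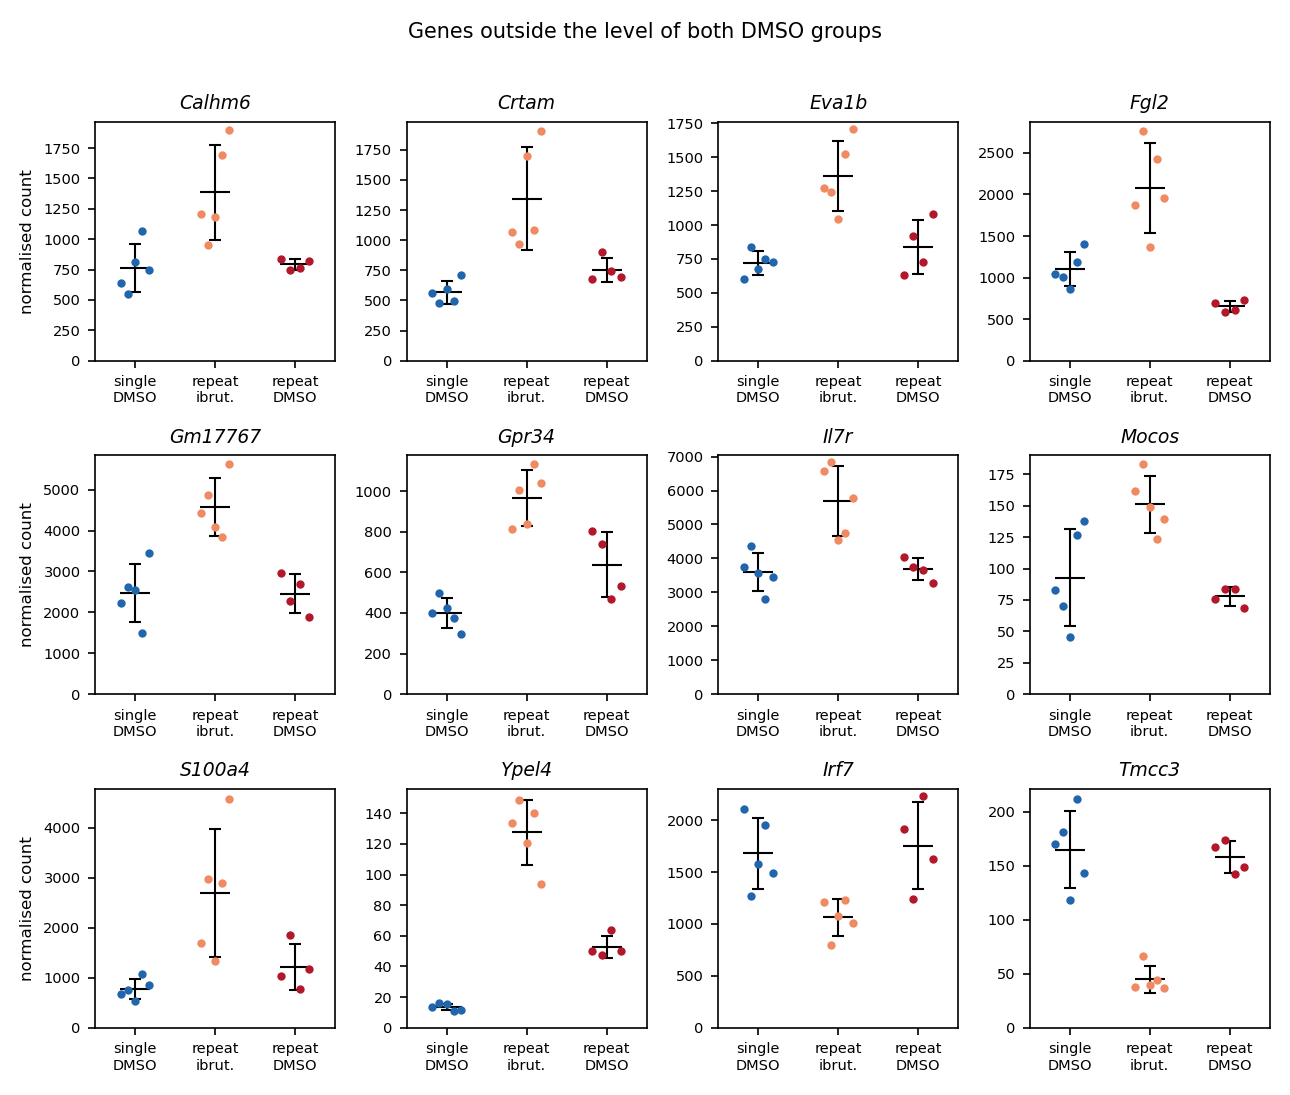
Normalised counts on a linear axis that starts at 0 for 10 genes called higher and 2 called lower (Irf7, Tmcc3) in ibrutinib-treated repeat peptide cells than in both DMSO groups. Points are libraries and bars means ± SD of single DMSO (n = 5), repeat ibrutinib (n = 5) and repeat DMSO (n = 4), and the mean of the middle group is the extreme in each panel.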

How the data were processed

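RNA of CD8+ T cells harvested on day 8 was sequenced from oligo-dT selected, strand-specific libraries (NEBNext Ultra II Directional). The authors trimmed the reads (Trim Galore), mapped them to GRCm38 and counted them per gene with RSEM 1.3.1, and the deposited tables hold their expected counts, estimates that need not be whole. The TPM values deposited by the authors are scaled to 1 total per library and served only to describe levels. The effective length deposited per gene, in bases, entered only an alternative. Gene lengths and FPKM were not used here.

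Expected counts were rounded. Of 45706 genes 45143 matched GENCODE M21 (GRCm38), and the 27903 protein-coding or lncRNA genes, holding 98.06% to 98.67% of counts, were kept. Genes passing filterByExpr were normalised by TMM and fitted with edgeR 4.0.16 (limma 3.58.1, R 4.3.3) by glmQLFit (robust) over all 18 libraries in 4 groups. Groups were compared by glmQLFTest, with Benjamini-Hochberg adjustment over the 12255 genes, and by glmTreat for differences beyond 2 times. The authors used DESeq2 (1.30.0) and shrank its fold changes. Their thresholds were kept, but here apply to edgeR fold changes that were not shrunk, and no block is named in their methods. Normalised counts refer to libraries brought to their mean effective size, and ± is the SD or SE as stated. The fit was tested on simulated counts that held no differences between sets, so that test does not show how it performs where sets differ.

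Genes named were members of 19 lists, the 10 called genes with the greatest fitted difference each way that kept its direction in A to D, the 5 with the largest TPM difference each way, and those called outside both DMSO groups. Some list members are not reported here by name. The comparison, lists and rules were chosen with earlier results of these data known. The genotype entries, which gave the sets A to F, were taken to pair the libraries. Deviations from group means correlated at 0.289 to 0.388 (median 0.325) in the 4 same-set pairs of the compared groups. In the 21 pairs from different sets they correlated at -0.404 to 0.404 (median -0.048), so the ranges overlapped. Over all 4 groups the ranges were 0.161 to 0.491 in 24 same-set pairs and -0.443 to 0.404 in 97 different-set pairs. No 2 libraries of a group were copies (chi-square per degree of freedom 28.7 to 225.7). No source says whether libraries of a group came from separate mice, so p-values measure the spread between these cultures. At these depths counting error is small except for genes with a few counts. Alternatives were other normalisation, filters, thresholds, gene length, gene types, samples and covariates, DESeq2 1.42.0 and leaving out each library.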

Additional observations from a re-analysis of the deposited data

Results flagged for a closer look

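In 10 of 360 groups of 5 libraries examined, 1 library stood apart from the other 4, judged by Dixon's ratio of its gap to the range on the log2 scale. Chance alone gives about 1 group in 20. Cd163l1 was lowest in single DMSO library C (103 normalised counts against 905 to 1934 in the other 4, ratio 0.740). In single DMSO library B, Cd200r1 was lowest, with 0 normalised counts where the other 4 had 10.3 to 25.5 (ratio 0.739). For Entpd1, ibrutinib-treated repeat library B was the highest, at 526 against 264 to 311 (ratio 0.766). Hk2 was lowest in ibrutinib-treated repeat library E (718 normalised counts against 1147 to 1372 in the other 4, ratio 0.723). In ibrutinib-treated repeat library A, Itgb7 was highest, with 24356 normalised counts where the other 4 had 16672 to 18336 (ratio 0.749). For Klre1, single DMSO library A was the lowest, at 0 against 11.5 to 17.3 (ratio 0.868). Lck was highest in ibrutinib-treated repeat library E (27891 normalised counts against 21064 to 22711 in the other 4, ratio 0.732). In single DMSO library D, Lgals1 was highest, with 17915 normalised counts where the other 4 had 8754 to 9596 (ratio 0.872). For Sept8, ibrutinib-treated repeat library E was the lowest, at 1.19 against 16.7 to 27.3 (ratio 0.817). Trib3 was highest in single DMSO library B (739 normalised counts against 432 to 479 in the other 4, ratio 0.807). Hk2 and Lck did not pass the threshold with or without library E, and Lgals1 kept its call without single DMSO library D.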

How the results depend on the processing

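Of 187 genes named, 161 were called, none of which changed direction under any alternative run, and 137 kept their call in every alternative other than the stricter fold. Asking for a log2 fold change past 1 in either direction left 1109 called genes, 806 higher and 303 lower. Leaving out 1 library gave 3090 (without ibrutinib-treated D) to 4405 (without ibrutinib-treated B) called genes, 1662 to 2235 higher and 1428 to 2170 lower. Other settings gave 3135 (only the 2 compared groups) to 4990. With the set as a replicate block 4990 genes were called, 3826 of them shared with the same direction, 540 differed by more than 2 times against 425 with only A to D, no named call was lost and 11 genes were gained, each given beside its result. With only A to D, Hmgcs1, Sqle and Tbx21 were called as well. Among named genes the calls of Bcl6, Btla, Cd3g, Cd74, Cflar, Eef2, Hist1h2ap, Lgals1, Maf and S100a10 were lost with only A to D, those of Btla, Cd74, Eef2, Exph5, Havcr2, Mocos, Mx1, Prdm1, Rplp2, Slc16a11, Slc26a10, Stard4, Tmod1 and Tnfrsf11b with only the 2 compared groups, those of Cd74, Mx1 and Rplp2 with the length offset, those of Cd74 and Eef2 with no filter on low counts, that of Eef2 with all gene types and that of Cd74 with the DESeq2 test. Direction changed for 6 genes that were not called: with 1 library left out their log2 fold changes ran from -0.04 to 0.16 for Bach2, -0.41 to 0.12 for Ccl5, -0.01 to 0.07 for Cd3e, -0.04 to 0.09 for Id3, -0.31 to 0.01 for Ltb and -0.04 to 0.12 for Ifngr1, which was at -0.07 with only A to D and with the block. An offset for effective length called 3728 genes, with 11 of the called genes on the other side of 0. The cause of these shifts was not tested. Sets E and F are in 1 group each, so they enter no paired difference. The smallest differences, the genes at or under 3 counts in a group and close gene copies are the least certain values.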
